A study of Rattus norvegicus with 15 samples.

Results

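Iron enters the body through the epithelium of the upper small intestine, and the 10 genes described here, Slc11a2, Cybrd1, Slc40a1, Heph, Tfrc, Fth1, Ftl1, Hmox1, Ireb2 and Epas1, encode the proteins that carry, store or sense it. They were measured by 20 probes, chosen by the gene name printed in the array files, out of 41012 probes outside the controls, which carry 17338 gene names. The files give the ferritin light chain under the older symbol Ftl, and its 5 probes were taken as Ftl1. Slc11a2, Slc40a1, Tfrc, Fth1, Ftl1 and Ireb2 had more than 1 probe, and each probe was treated apart.

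RNA from a whole piece of intestine was hybridised to one-color arrays, with 5 male rats in each of 3 groups. Wistar rats are nondiabetic animals of the parent stock and had no operation. GK-Sham-PF rats belong to the Goto-Kakizaki (GK) strain, a nonobese diabetic line bred from Wistar rats. They form the sham group and had a sham operation, in which the intestine was opened 16 cm beyond the ligament of Treitz and rejoined without rearrangement, and were pair-fed. GK-S-30 rats, the bypass group, are GK rats that had a Roux-en-Y gastric bypass (RYGB) with a Roux limb (RL) of 30 cm. GK rats were operated on at 16 wk of age and sampled 14 wk later, at 30 wk, after an overnight fast, with age-matched Wistar rats as controls and standard chow in all groups. The RL piece was 5 cm long and began 5 cm from the join with the stomach. In the other groups the matching piece lay 21 to 26 cm beyond the ligament of Treitz. All of the tissue was therefore taken beyond the duodenum, and "duodenal-type" refers to what these genes are known for, not to where the samples came from. GK-S-30 differed from GK-Sham-PF in the bypass and in feeding, since the sham ration was set by the surgical group that ate least. The sham group differed from Wistar in strain, operation and feeding, and GK-S-30 differed from Wistar in strain and bypass together. No unoperated GK rats were among the arrays analysed here.

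As background, dietary ferric iron is reduced at the brush border by duodenal cytochrome b, the product of Cybrd1, and taken up by the divalent metal transporter DMT1, the product of Slc11a2. Iron that is not held in ferritin, built from the Fth1 and Ftl1 chains, leaves across the basolateral membrane through ferroportin, the product of Slc40a1, and is oxidised by hephaestin, the product of Heph. Iron regulatory protein 2, the product of Ireb2, binds hairpins in the mRNAs of Tfrc, ferritin, Slc40a1 and one form of Slc11a2 when iron in the cell is low. It then protects the mRNA of the transferrin receptor, Tfrc, from decay and holds back translation of ferritin. HIF-2α, the product of Epas1, drives transcription of Slc11a2, Cybrd1 and Slc40a1 in the duodenum when oxygen or iron is short.

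Several results turn on probes of a single gene that did or did not move together, so their sequences are shown here as the array files give them, 5′ to 3′, with their positions in the rn4 rat genome. Probe 2 of Slc11a2 began 4697 bases from probe 1 in the direction of transcription, on chromosome 7 (probe 1 at chr7:139094818-139094877 and probe 2 at chr7:139090121-139090180, minus strand). The files tie them to different transcripts, and Slc11a2 is known to be made with different 3′ ends, with and without an iron-responsive hairpin. Which of these forms each probe reads was not tested.
Slc11a2 probe 1: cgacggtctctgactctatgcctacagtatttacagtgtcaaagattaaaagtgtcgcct
Slc11a2 probe 2: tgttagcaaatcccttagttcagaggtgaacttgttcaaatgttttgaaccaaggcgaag

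The Tfrc probes lay on chromosome 11, minus strand, with probe 1 at chr11:69976628-69976687, probe 2 at chr11:69977361-69977420 and probe 3 at chr11:69978846-69980500, a span that is longer than the probe itself. They are shown because they read different places of the gene and each was called in the same direction.
Tfrc probe 1: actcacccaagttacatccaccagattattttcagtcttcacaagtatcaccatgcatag
Tfrc probe 2: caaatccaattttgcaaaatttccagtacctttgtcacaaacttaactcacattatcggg
Tfrc probe 3: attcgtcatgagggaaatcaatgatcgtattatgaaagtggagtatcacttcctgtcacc

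The Ireb2 probes lay on the plus strand of chromosome 8, with probe 1 at chr8:58477731-58477791 and probe 2 at chr8:58476082-58476141.
Ireb2 probe 1: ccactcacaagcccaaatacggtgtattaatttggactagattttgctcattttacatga
Ireb2 probe 2: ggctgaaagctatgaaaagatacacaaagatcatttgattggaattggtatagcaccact

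The Fth1 probes are near copies of each other. Over the 55 bases that they share they differed at 3, which are in capitals, and the files place probe 1 at chr1:212431855-212431914 and probe 2 at chr1:24186076-24186135. Ferritin heavy chain sequences occur in more than 1 place in mammalian genomes, so the source of the signal of either probe is uncertain.
Fth1 probe 1: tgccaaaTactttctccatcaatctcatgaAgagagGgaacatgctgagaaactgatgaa
Fth1 probe 2: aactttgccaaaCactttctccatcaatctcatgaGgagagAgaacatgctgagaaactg

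Arrays were read as log2 of the processed signal after quantile normalization, so a difference of 1 is a doubling. Levels of different probes were not compared, since each probe binds its target with its own strength. All 20 probes were well above background on all 15 arrays and none was saturated. The arrays sat on 4 slides, called A to D here. Wistar replicates 2 to 5 were on slide A, and replicate 1 shared slide B with GK-Sham-PF replicates 1 to 3. The remaining GK-Sham-PF arrays, replicates 4 and 5, shared slide C with GK-S-30 replicates 1 and 2, and GK-S-30 replicates 3 to 5 were on slide D. The dimmest arrays were replicate 3 of Wistar and replicate 5 of GK-Sham-PF, with a 75th percentile of the signal before normalization of 207 and 208 against 302 to 357.

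The pieces carried the RNA of intestinal epithelium. Probes of enterocyte markers averaged 14.23 to 14.93 on the log2 scale in every array, with Alpi, the intestinal alkaline phosphatase, at 15.61 ± 0.26 in GK-S-30, 15.74 ± 0.33 in GK-Sham-PF and 15.94 ± 0.33 in Wistar (SD, n = 5). None of the 14 enterocyte probes passed the test between the bypass and sham groups, where the Lct probes were at -1.06 ± 0.54 and -1.12 ± 0.34 (limma adjusted p = 0.289 and 0.0613). Against Wistar, where 11.8% of all probes were lower in GK-S-30, 2 of the 14 were. They were the second of these Lct probes (-1.24 ± 0.34, limma adjusted p = 0.016, and 0.358 with slide as a block) and that of Fabp2 (-0.28 ± 0.08, 0.0208, and 0.5). The stomach marker Atp4a, a subunit of the acid pump, was not well above background on all arrays of any group, and neither were Gkn1, Gkn2 and Muc5ac. The other stomach markers, Tff1, Atp4b and Pgc, were well above background on every array, with Pgc, a pepsinogen, at 9.74 ± 0.13 in GK-S-30, 9.81 ± 0.14 in GK-Sham-PF and 9.93 ± 0.29 in Wistar (SD, n = 5), and none of the 3 passed in any comparison. Smooth muscle markers moved with the bypass. Their 9 probes summed to between 86300 and 111000 units of linear signal in GK-S-30, against 23800 to 51200 in GK-Sham-PF and 26600 to 45600 in Wistar. Of the 9, 5 were higher in bypass than in sham rats, where 3.9% of all probes were. Of 3 probes of markers of the lower intestine, the bile acid transporter Slc10a2 (log2 fold change 3.43 ± 0.30 SE, limma adjusted p = 1.14e-05) and the bile acid binding protein Fabp6 (1.71 ± 0.42, limma adjusted p = 0.0243), were also higher in bypass than in sham rats, and the third, of the gut hormone Pyy, differed by 0.16 ± 0.36 and did not pass (limma adjusted p = 0.859). With slide as a block Slc10a2 still passed (limma adjusted p = 0.000529) and Fabp6 did not (0.175). Slc10a2 was lower in GK-Sham-PF than in Wistar (-2.41 ± 0.30, limma adjusted p = 5.36e-05, and 0.0699 with the block). GK-S-30 lay above Wistar by 1.02 ± 0.30 for Slc10a2 (limma adjusted p = 0.0216, and 0.0368 with the block) and 2.08 ± 0.42 for Fabp6 (0.00227, and 0.21). The upper intestine markers Pdx1 (0.94 ± 0.5) and Gata4 (0.19 ± 0.11) did not pass between the bypass and sham groups (limma adjusted p = 0.314 and 0.384). The 7 lymphocyte probes summed to 4390 to 5900 in GK-S-30 against 5480 to 8290 in GK-Sham-PF. Of them 2 were lower, Cd3e (-0.76 ± 0.16, limma adjusted p = 0.0119, and 0.061 with the block) and Cd3g (-0.47 ± 0.13, 0.0458, and 0.253). Cd3g, at 11.89 in GK-S-30, was the brightest and weighs most in the sum. Cd79b was at 0.33 ± 0.27 against GK-Sham-PF (limma adjusted p = 0.565) and was higher in GK-S-30 than in Wistar (1.3 ± 0.27, 0.00294, and 0.189 with the block). Because RNA came from whole pieces of tissue, a smaller number of cells of a type and less RNA in each of them cannot be told apart, and the part of these shifts in the results below was not tested.

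**Figure D1:**
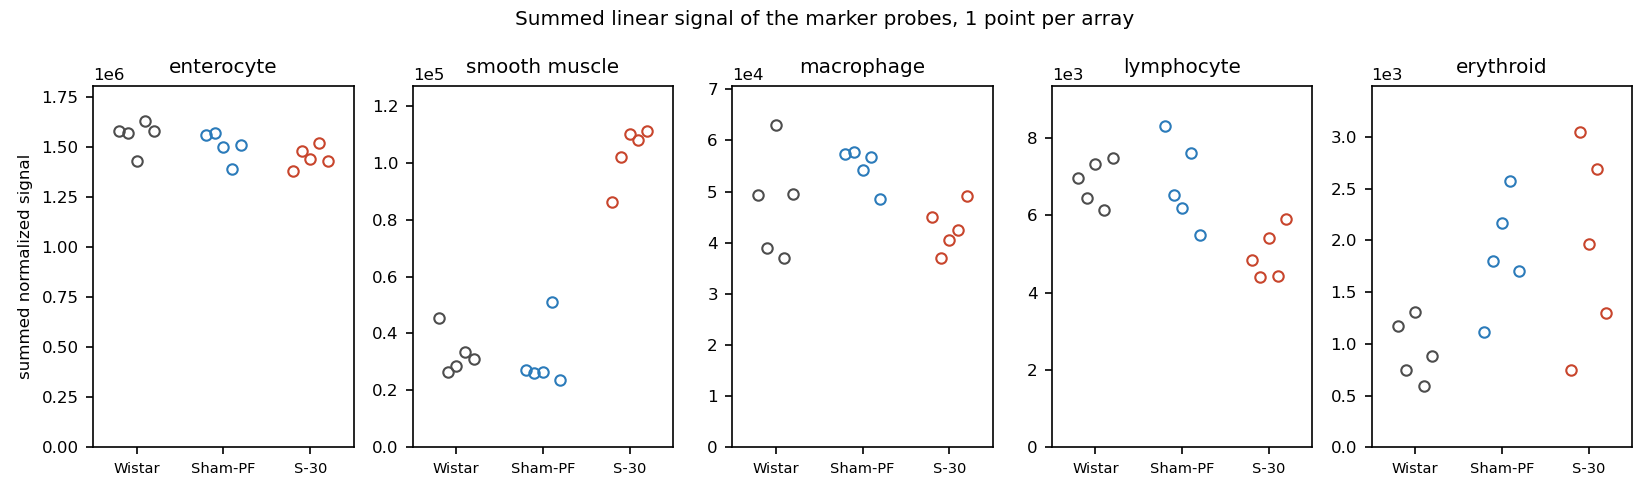
Summed linear normalized signal of the probes of 5 marker lists (vertical axes, each starting at 0), with 1 point per array in Wistar, GK-Sham-PF (Sham-PF) and GK-S-30 (S-30). Every GK-S-30 array lay above all others for smooth muscle, the enterocyte sums of the groups overlapped, and the lowest lymphocyte sums were in GK-S-30.

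Between the bypass and sham groups, 6 of the 20 probes passed the test, which adjusts over all probes tested, and all 6 were higher in GK-S-30. They were the 3 probes of Tfrc, both probes of Ireb2 and probe 1 of Slc11a2. Among all 27891 probes tested, 6.7% passed, with 3.9% higher and 2.8% lower in GK-S-30. The median log2 fold change of the 20 probes was 0.19, beside -0.03 over all probes tested. The arrays of the groups failed to overlap for 1 of the 20 probes, probe 1 of Ftl1, which did not pass the test, and for 7.71% of all probes. No probe of the 10 genes passed between GK-Sham-PF and Wistar, where 7.83% of all probes did, 3.61% higher and 4.22% lower in GK-Sham-PF (limma, with the smallest adjusted p = 0.172). Between GK-S-30 and Wistar, 6 probes passed, 4 higher and 2 lower in GK-S-30, where 22.8% of all probes did (10.9% higher and 11.8% lower). Both comparisons with GK-S-30 use the same GK-S-30 arrays and the same is true of the shared GK-Sham-PF and Wistar arrays, so the 3 sets of values are not independent of each other.

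**Figure D2:**
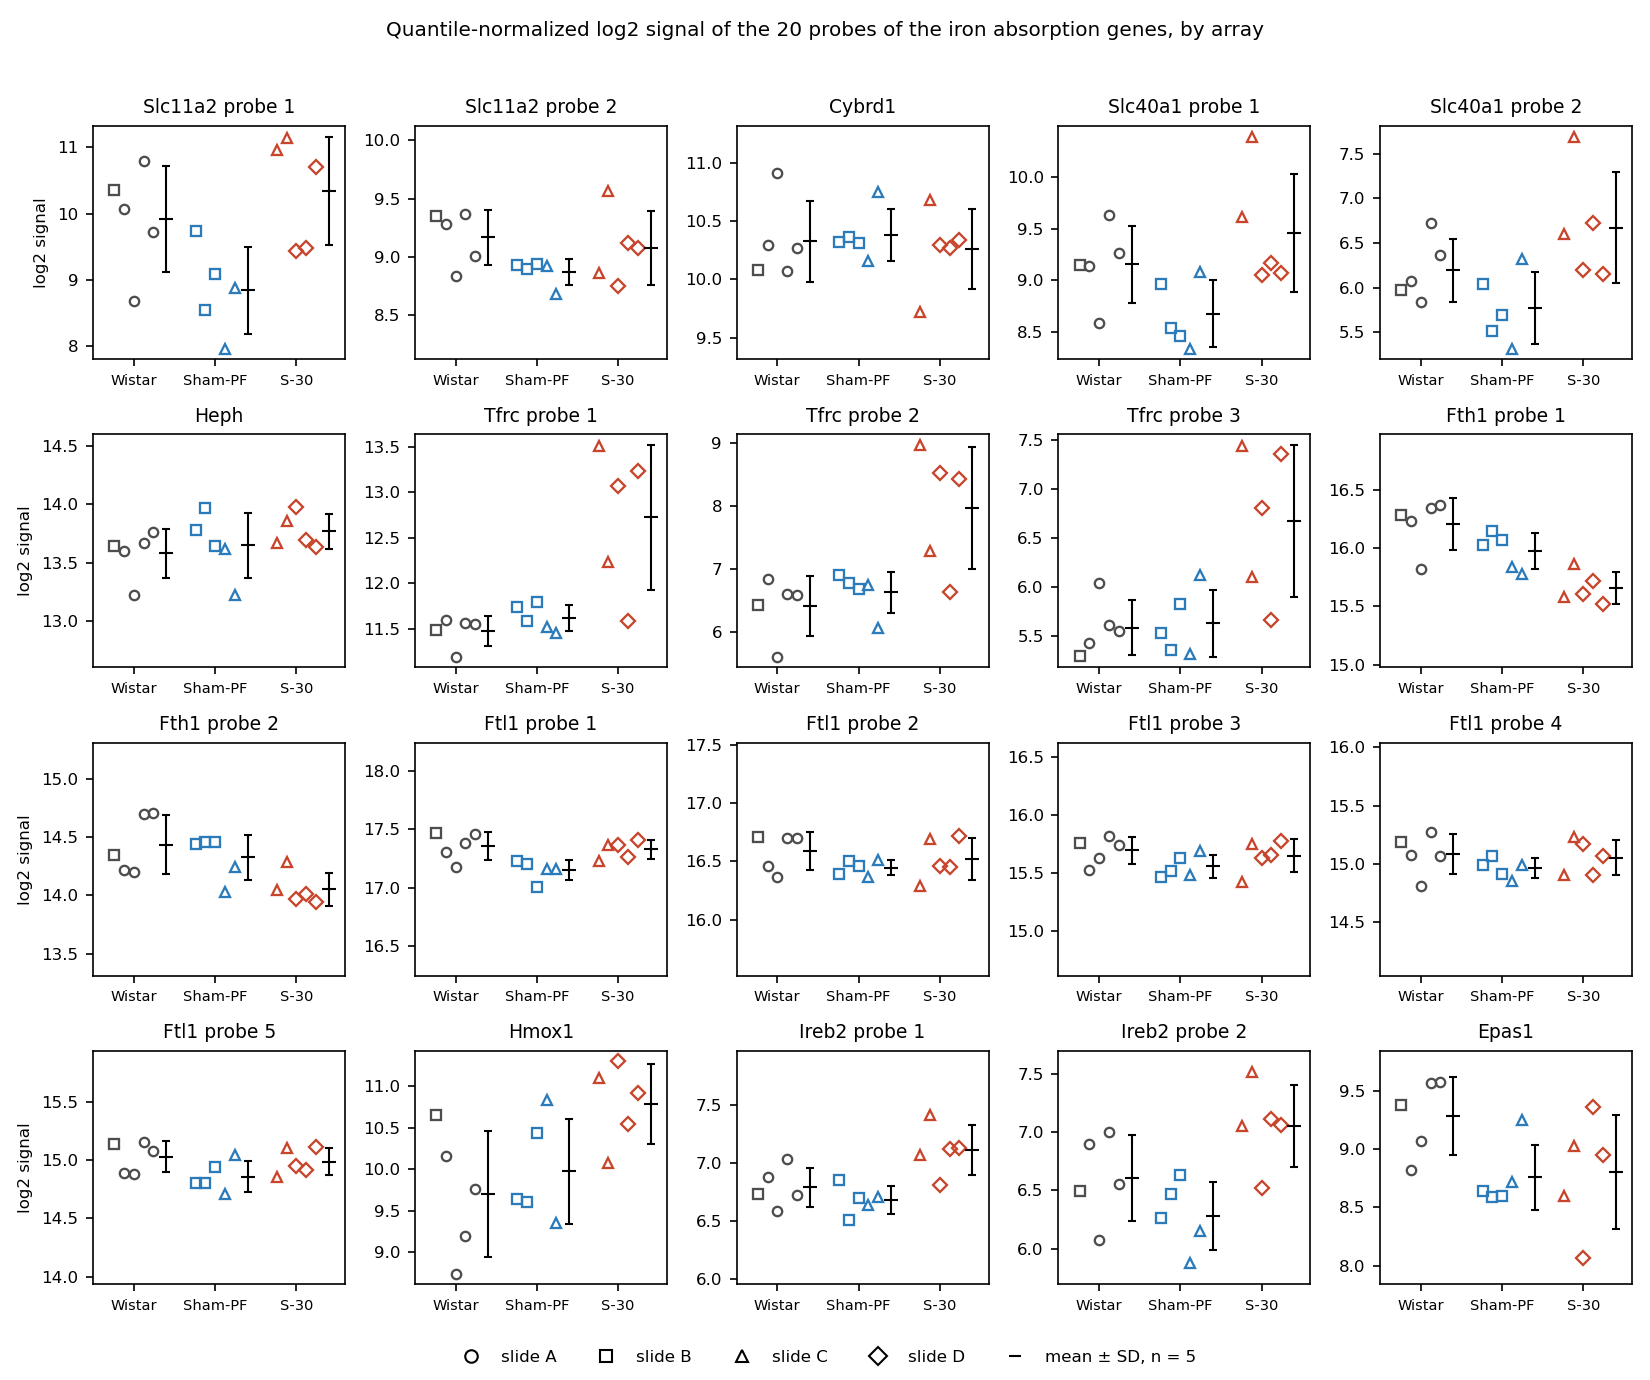
Quantile-normalized log2 signal (vertical axes) of each of the 20 probes in the 15 arrays, by group (Sham-PF stands for GK-Sham-PF and S-30 for GK-S-30), with the symbol giving the slide and the bar giving the mean ± SD of 5 arrays. In each Tfrc panel GK-S-30 replicates 1, 3 and 5 stand above all control arrays and replicate 4 lies among them, while no Ftl1 probe passed.

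Tfrc, the receptor that takes up transferrin-bound iron from the blood side, was the only one of the 10 genes called against both control groups. Tfrc probe 1 read 13.51, 12.23, 13.07, 11.58 and 13.23 in GK-S-30 replicates 1 to 5. It read 11.74, 11.58, 11.79, 11.52 and 11.45 in GK-Sham-PF and 11.49, 11.59, 11.19, 11.56 and 11.55 in Wistar. In GK-S-30, replicates 1, 3 and 5 were far above every control array, replicate 2 was above them by less, and replicate 4 lay within their range, so the groups overlapped through that 1 rat. Tfrc probe 2 read 8.97, 7.29, 8.53, 6.64 and 8.43 in GK-S-30, 6.9, 6.78, 6.68, 6.75 and 6.07 in GK-Sham-PF, and 6.43, 6.85, 5.61, 6.61 and 6.59 in Wistar. Tfrc probe 3 read 7.44, 6.11, 6.81, 5.67 and 7.36 in GK-S-30, 5.53, 5.36, 5.83, 5.32 and 6.13 in GK-Sham-PF, and 5.3, 5.43, 6.04, 5.62 and 5.56 in Wistar. At probe 3 replicate 2 also overlapped the controls. All 3 probes placed replicate 4 lowest and replicate 2 next lowest among the GK-S-30 rats, and the SD in GK-S-30 (0.80, 0.97 and 0.77) was above that in GK-Sham-PF (0.14, 0.32 and 0.34).

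Against GK-Sham-PF, Tfrc rose 2.15-fold at probe 1 (log2 fold change 1.11 ± 0.28 SE, limma adjusted p = 0.0259). It rose 2.52-fold at probe 2 (1.34 ± 0.37, limma adjusted p = 0.0429) and 2.06-fold at probe 3 (1.04 ± 0.30, limma adjusted p = 0.0477). Against Wistar the same probes rose 2.37-fold, 2.94-fold and 2.12-fold (limma adjusted p = 0.00443, 0.00719 and 0.016), and each of these calls held when any 1 of the 15 arrays was left out (log2 fold changes of 1.05 to 1.53, 1.3 to 1.89 and 0.89 to 1.34). GK-Sham-PF and Wistar differed by 0.14, 0.22 and 0.04 on the log2 scale, with a 95% interval at probe 1 of -0.46 to 0.74. No difference in response between the 3 probes passed a test. Within arrays, probe 1 minus probe 2 was 4.75 ± 0.20 in GK-S-30 and 4.98 ± 0.26 in GK-Sham-PF (SD, n = 5, exact permutation test, two-sided p = 0.183).

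The calls of Tfrc against GK-Sham-PF rested on several single arrays. Probe 1 lost its call without GK-Sham-PF replicate 2, 4 or 5 or without GK-S-30 replicate 1, 3 or 5 (limma adjusted p of up to 0.0686), and probes 2 and 3 each held theirs in 4 of the 15 fits that leave out an array. Probe 2 lost it without Wistar replicate 1, 4 or 5, any GK-Sham-PF array, or GK-S-30 replicate 1, 3 or 5 (limma adjusted p of up to 0.104). Probe 3 lost it without Wistar replicate 1, 2, 4 or 5, GK-Sham-PF replicate 1, 2, 3 or 4, or GK-S-30 replicate 1, 3 or 5 (limma adjusted p of up to 0.121). On slide C alone, the 2 GK-S-30 arrays exceeded the 2 GK-Sham-PF arrays by 1.38, 1.72 and 1.05, about as much as over all arrays, but with the slide as a block none of the 3 passed (limma adjusted p = 0.181, 0.215 and 0.345). Against Wistar, with which GK-S-30 shares no slide, the same fit gave 1.59, 2.08 and 1.32 (limma adjusted p = 0.344, 0.358 and 0.475). Dividing and erythroid cells are known for high Tfrc. Of 10 probes of proliferation markers none passed between the bypass and sham groups (limma). They summed to 15100, 9690, 10900, 12100 and 14800 in GK-S-30 replicates 1 to 5 and to 10900 to 13300 in GK-Sham-PF. Of 3 erythroid probes 1 was higher, that of Slc4a1 (0.87 ± 0.24, limma adjusted p = 0.0453, and 0.251 with slide as a block). The erythroid sums were 745 to 3050 in GK-S-30 and 1110 to 2570 in GK-Sham-PF. Against Wistar, whose erythroid sums were 595 to 1310, 2 of the 3 erythroid probes were higher in GK-S-30. They were those of the heme synthesis enzyme Alas2 (1.29 ± 0.38, limma adjusted p = 0.0223) and the anion exchanger Slc4a1 (0.81 ± 0.24, limma adjusted p = 0.0266). With slide as a block they were at 0.34 and 0.93 and did not pass (limma adjusted p = 0.907 and 0.537). None of the proliferation probes passed against Wistar, and the part of both marker lists in the Tfrc values was not tested.

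Ireb2, the iron sensor that acts on these mRNAs, was called higher against GK-Sham-PF at both probes, but not against Wistar. Ireb2 probe 1 read 7.07, 7.41, 6.81, 7.12 and 7.13 in GK-S-30, 6.85, 6.51, 6.7, 6.64 and 6.71 in GK-Sham-PF, and 6.73, 6.88, 6.59, 7.03 and 6.72 in Wistar. Ireb2 probe 2 read 7.05, 7.51, 6.52, 7.11 and 7.06 in GK-S-30, 6.26, 6.47, 6.63, 5.88 and 6.15 in GK-Sham-PF, and 6.49, 6.9, 6.07, 7 and 6.55 in Wistar. At both probes replicate 3 was the lowest GK-S-30 rat and the one that overlapped GK-Sham-PF, and replicate 2 was the highest. The GK-S-30 rats were ordered otherwise at Tfrc probe 1, where replicate 3 read 13.07 and replicate 2 read 12.23. A link between the changes of Ireb2 and Tfrc was not tested. The rise over GK-Sham-PF was 1.34-fold at probe 1 (0.42 ± 0.12 SE, limma adjusted p = 0.0402) and 1.71-fold at probe 2 (0.77 ± 0.20, limma adjusted p = 0.0325). The differences from Wistar were 0.32 ± 0.12 and 0.45 ± 0.20 and did not pass (limma adjusted p = 0.0619 and 0.128). On slide C the differences from GK-Sham-PF were 0.56 and 1.26, and the fit with slide as a block gave limma adjusted p = 0.177 and 0.0656. Of 15 fits without 1 array, probe 1 held its call in 5, losing it without Wistar replicate 1 or 5, GK-Sham-PF replicate 2, 3, 4 or 5, or GK-S-30 replicate 1, 2, 4 or 5 (limma adjusted p of up to 0.0999). Probe 2 held its call in 8, losing it without GK-Sham-PF replicate 1, 4 or 5 or GK-S-30 replicate 1, 2, 4 or 5 (limma adjusted p of up to 0.0776).

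At the brush border, the 2 probes of Slc11a2 gave different readings. Slc11a2 probe 1 read 10.96, 11.14, 9.44, 9.48 and 10.7 in GK-S-30, 9.73, 8.55, 9.08, 7.96 and 8.88 in GK-Sham-PF, and 10.35, 10.07, 8.68, 10.79 and 9.72 in Wistar. GK-S-30 replicates 1, 2 and 5 were above all GK-Sham-PF arrays, replicates 3 and 4 overlapped GK-Sham-PF replicate 1, and the Wistar arrays overlapped both groups. Probe 1 rose 2.84-fold over GK-Sham-PF (1.50 ± 0.43 SE, interval 0.56 to 2.45, limma adjusted p = 0.0499), close to the threshold of 0.05. GK-Sham-PF lay 1.08 ± 0.43 below Wistar (limma adjusted p = 0.172), and GK-S-30 lay 0.42 ± 0.43 above Wistar (interval -0.52 to 1.37, limma adjusted p = 0.529). On slide C alone the difference from GK-Sham-PF was 2.63, over 1.5 times as large, with limma adjusted p = 0.0602 for the slide block. The call was lost without Wistar replicate 1, 2 or 5, GK-Sham-PF replicate 2, 3, 4 or 5, or GK-S-30 replicate 1, 2 or 5 (log2 fold change 1.29 to 1.56, limma adjusted p = 0.0607 to 0.115), and without Wistar replicate 3 the difference between GK-Sham-PF and Wistar passed (-1.39 ± 0.40, limma adjusted p = 0.0485).

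Slc11a2 probe 2 read 8.86, 9.57, 8.75, 9.12 and 9.08 in GK-S-30, 8.93, 8.9, 8.94, 8.92 and 8.68 in GK-Sham-PF, and 9.35, 9.28, 8.84, 9.37 and 9.01 in Wistar. The 3 groups overlapped, and the difference between the bypass and sham groups was 0.20 ± 0.15 (interval -0.12 to 0.52, limma adjusted p = 0.491). Within arrays, probe 1 minus probe 2 was 1.27 ± 0.72 in GK-S-30, -0.03 ± 0.66 in GK-Sham-PF and 0.75 ± 0.58 in Wistar (SD, n = 5). The difference of 1.30 between the bypass and sham groups had p = 0.0238 in an exact two-sided permutation test and 0.405 after Benjamini-Hochberg adjustment over the 17 pairs of probes that share a gene, a comparison chosen after the values were seen. The smallest p that 5 arrays against 5 allow is 0.00794, and none of the 17 pairs passed after adjustment.

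Cybrd1, the reductase that prepares iron for Slc11a2, passed in no comparison at its single probe (chr3:53405880-53405939, plus strand). It read 9.72, 10.68, 10.29, 10.27 and 10.34 in GK-S-30, 10.32, 10.36, 10.31, 10.16 and 10.75 in GK-Sham-PF, and 10.08, 10.29, 10.91, 10.07 and 10.27 in Wistar. The difference between the bypass and sham groups was -0.12 ± 0.18 (interval -0.52 to 0.28, limma adjusted p = 0.791). GK-S-30 replicate 1 and Wistar replicate 3 were the lowest and highest of all arrays, and the 3 groups overlapped.

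Export across the basolateral membrane was read by 2 Slc40a1 probes and 1 Heph probe. Slc40a1 probe 1 (chr9:44977923-44977982, minus strand) read 9.61, 10.39, 9.05, 9.17 and 9.07 in GK-S-30, 8.96, 8.54, 8.46, 8.34 and 9.08 in GK-Sham-PF, and 9.15, 9.14, 8.59, 9.63 and 9.26 in Wistar. Slc40a1 probe 2 (chr9:44980771-44981749, minus strand, a span longer than the probe) read 6.6, 7.69, 6.2, 6.72 and 6.15 in GK-S-30, 6.04, 5.52, 5.69, 5.32 and 6.32 in GK-Sham-PF, and 5.97, 6.08, 5.84, 6.72 and 6.36 in Wistar. Replicate 2 was the highest GK-S-30 rat at both probes, and GK-Sham-PF replicate 5, one of the dimmer arrays, overlapped the GK-S-30 range at both. The differences between the bypass and sham groups, 0.78 ± 0.25 and 0.90 ± 0.27, did not pass (limma adjusted p = 0.0808 and 0.064). Without both dimmer arrays they were 0.88 and 1.04 and did pass (limma adjusted p = 0.0423 and 0.0381), and on slide C they were 1.29 and 1.33 (slide as a block, limma adjusted p = 0.0906 and 0.137). No difference in response between the probes passed, with probe 1 minus probe 2 at 2.79 ± 0.22 in GK-S-30 and 2.90 ± 0.13 in GK-Sham-PF (SD, n = 5, exact permutation test, two-sided p = 0.373).

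Heph (chrX:84138506-84138565, plus strand) read 13.67, 13.86, 13.98, 13.69 and 13.63 in GK-S-30, 13.78, 13.97, 13.64, 13.62 and 13.22 in GK-Sham-PF, and 13.64, 13.6, 13.22, 13.67 and 13.76 in Wistar. The 3 groups overlapped throughout. The difference between the bypass and sham groups was 0.12 ± 0.14 (interval -0.18 to 0.42, limma adjusted p = 0.707).

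Ferritin, the storage protein, is built from heavy (Fth1) and light (Ftl1) chains. Fth1 probe 1 read 15.58, 15.86, 15.61, 15.72 and 15.52 in GK-S-30, 16.03, 16.15, 16.07, 15.84 and 15.78 in GK-Sham-PF, and 16.28, 16.23, 15.82, 16.34 and 16.37 in Wistar. Fth1 probe 2 read 14.05, 14.29, 13.97, 14.01 and 13.94 in GK-S-30, 14.44, 14.46, 14.46, 14.03 and 14.24 in GK-Sham-PF, and 14.35, 14.22, 14.2, 14.7 and 14.71 in Wistar. Wistar was highest and GK-S-30 lowest on average at both probes, and 1 array decided the overlap with Wistar at probe 1, where Wistar replicate 3 at 15.82 was below GK-S-30 replicate 2 at 15.86. Against Wistar, Fth1 fell 1.46-fold at probe 1 (-0.55 ± 0.12, limma adjusted p = 0.00371) and 1.31-fold at probe 2 (-0.38 ± 0.13, limma adjusted p = 0.0441). Against GK-Sham-PF the differences were -0.32 ± 0.12 and -0.27 ± 0.13 and did not pass (limma adjusted p = 0.131 and 0.249), though that of probe 1 did without both dimmer arrays (-0.36, limma adjusted p = 0.026).

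Probe 1 of Fth1 kept its call against Wistar whichever array was left out (-0.64 to -0.51), and probe 2 kept it in 5 of the 15 fits (-0.44 to -0.32, limma adjusted p of up to 0.115), losing it without Wistar replicate 1, 4 or 5, GK-Sham-PF replicate 1, 2 or 3, or GK-S-30 replicate 1, 3, 4 or 5. Fitted with slide as a block they were -0.29 and 0.14 (limma adjusted p = 0.695 and 0.87), the second with its sign turned, and within slide C the difference from GK-Sham-PF was -0.09 and 0.04, the 2 GK-Sham-PF arrays on that slide being the lowest of their group at both probes. GK-S-30 and Wistar share no slide, so this fit reaches Wistar only through the sham group.

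Ftl1 was read by 5 probes on chromosome 1 (minus strand, from chr1:95929216-95929261 for probe 1 to chr1:95930865-95930924 for probe 4). Probe 1 read 17.23, 17.37, 17.37, 17.26 and 17.41 in GK-S-30, 17.23, 17.2, 17.01, 17.16 and 17.16 in GK-Sham-PF, and 17.47, 17.31, 17.18, 17.38 and 17.46 in Wistar. Every GK-S-30 array was at or above the highest GK-Sham-PF array, but by 0.18 ± 0.08 only (limma adjusted p = 0.259). Across the 5 probes the differences between the bypass and sham groups lay between 0.07 and 0.18, those between GK-Sham-PF and Wistar between -0.21 and -0.12, and those between GK-S-30 and Wistar between -0.07 and -0.03, and no probe passed. Probes 2 and 3 are given the same place in the files (chr1:95929543-95929804) and are printed with the 4 bases at which they differ in capitals. They show how alike the group differences of near-identical probes were, though their levels differed. Within arrays, probe 2 minus probe 3 was 0.87 ± 0.07 in GK-S-30, 0.89 ± 0.07 in GK-Sham-PF and 0.89 ± 0.09 in Wistar (SD, n = 5).
Ftl1 probe 2: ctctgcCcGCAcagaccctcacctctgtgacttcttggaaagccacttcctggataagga
Ftl1 probe 3: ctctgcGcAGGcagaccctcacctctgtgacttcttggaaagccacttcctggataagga

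Hmox1, heme oxygenase 1, frees iron from heme, and its probe (chr19:13969336-13969395, plus strand) was spotted 10 times on each array. It read 11.1, 10.07, 11.3, 10.55 and 10.92 in GK-S-30, 9.64, 9.6, 10.44, 10.83 and 9.35 in GK-Sham-PF, and 10.65, 10.16, 8.74, 9.19 and 9.76 in Wistar. GK-S-30 replicates 1, 3 and 5 were above every control array, and replicates 2 and 4 were not. Hmox1 rose 2.12-fold over Wistar (1.09 ± 0.36 SE, limma adjusted p = 0.042), while 0.81 ± 0.36 over GK-Sham-PF did not pass (limma adjusted p = 0.215). With slide as a block the difference from Wistar was -0.27 ± 0.84 (limma adjusted p = 0.915), its sign turned. It also failed without Wistar replicate 3, 4 or 5, GK-Sham-PF replicate 1, or GK-S-30 replicate 1, 3, 4 or 5 (0.84 to 1.15, limma adjusted p = 0.0501 to 0.0998). Macrophages are another known site of Hmox1. Of the 10 probes of macrophage markers none passed between the bypass and sham groups. Against Wistar 1 rose and 1 fell, where 10.9% of all probes were higher and 11.8% lower. The macrophage probes summed to 37000 to 49100 in GK-S-30, 48500 to 57800 in GK-Sham-PF and 37100 to 62900 in Wistar.

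Epas1, which encodes the oxygen-sensitive subunit of HIF-2 had 1 probe (chr6:10295169-10295420, plus strand), which read 8.6, 9.03, 8.07, 9.36 and 8.95 in GK-S-30, 8.64, 8.59, 8.6, 8.72 and 9.25 in GK-Sham-PF, and 9.38, 8.82, 9.07, 9.57 and 9.58 in Wistar. Both GK groups averaged about the same, and their difference was 0.04 ± 0.22 (interval -0.44 to 0.53, limma adjusted p = 0.946). GK-Sham-PF lay 0.52 ± 0.22 below Wistar and GK-S-30 lay 0.48 ± 0.22 below it, and neither difference passed (limma adjusted p = 0.206 and 0.138).

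**Figure D3:**
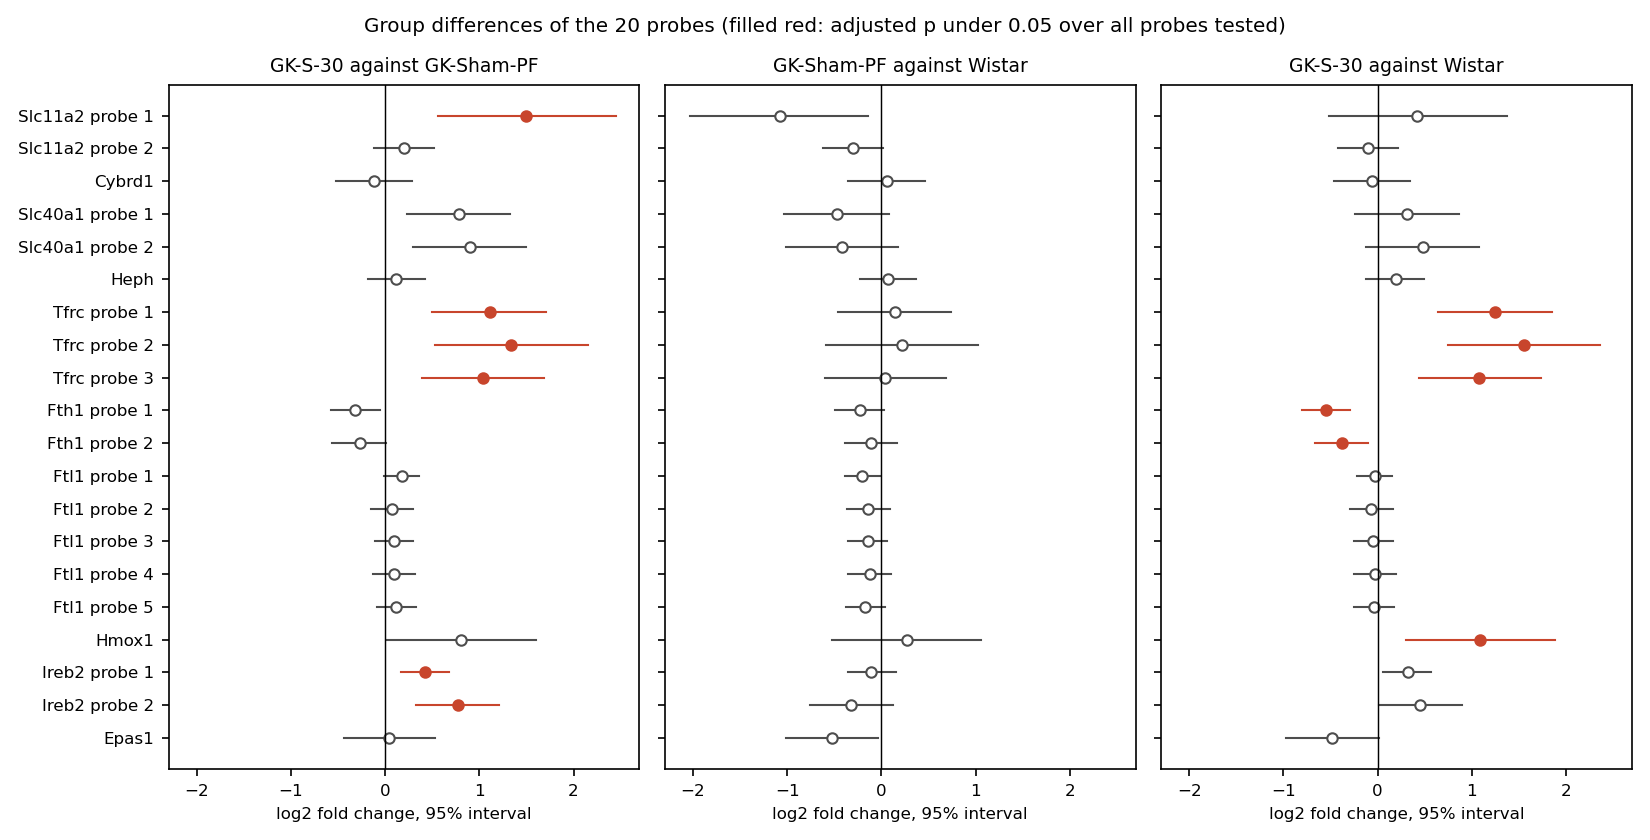
Log2 fold change (horizontal axes) with its 95% interval for each of the 20 probes in the 3 comparisons, filled red where the limma adjusted p was under 0.05. Tfrc was to the right of 0 at all 3 probes in both comparisons with GK-S-30, Fth1 was to its left against Wistar, and no probe was red between GK-Sham-PF and Wistar.

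With slide as a fixed block, 0 of the 20 probes passed in any comparison, where 1.37%, 1.49% and 1.63% of all probes did (limma, in the order GK-S-30 against GK-Sham-PF, GK-Sham-PF against Wistar and GK-S-30 against Wistar). In that fit the comparison with GK-Sham-PF rests on the 4 arrays of slide C. All 6 probes called against GK-Sham-PF kept their direction, with differences at least as large as without the block. The one-way comparison with Tukey's correction that the study's methods describe, which does not adjust over probes, passed 10 of the 20 probes between the bypass and sham groups, where it passed 13.9% of all probes, the additional ones being both Slc40a1 probes, Fth1 probe 1 and Ftl1 probe 1.

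**Figure D4:**
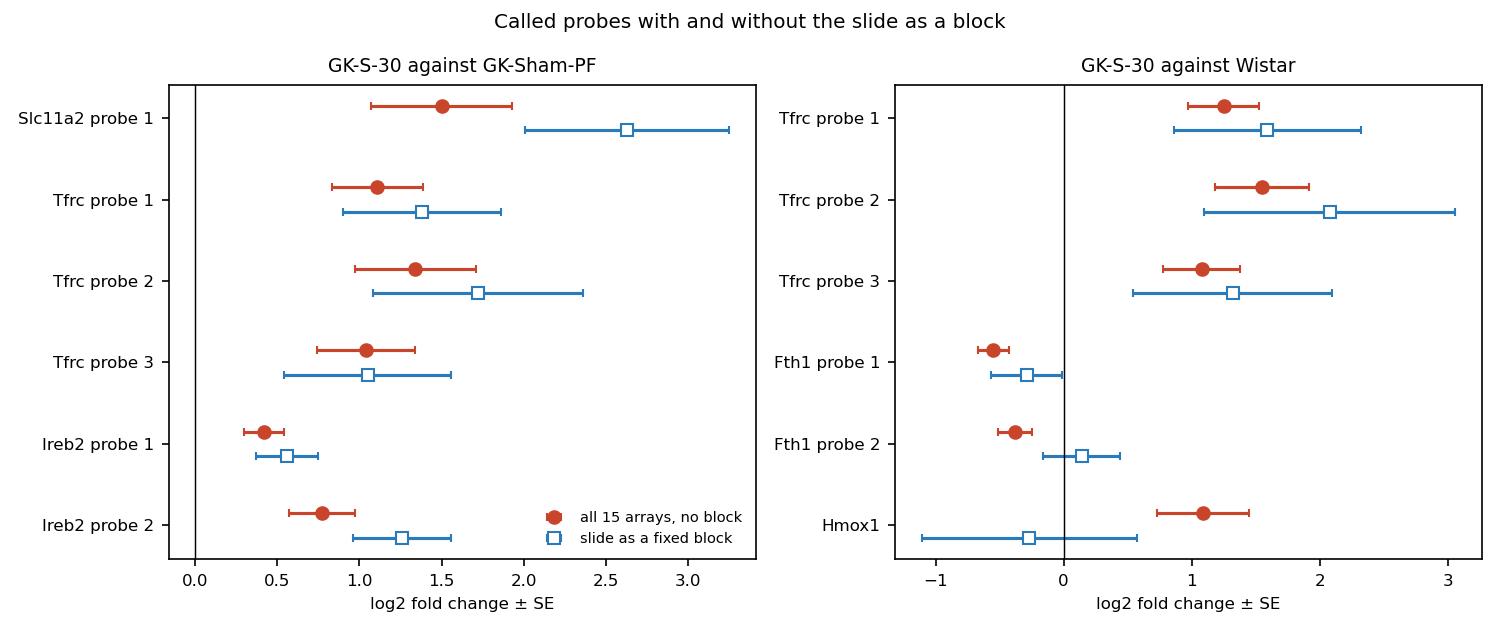
Log2 fold change ± SE (horizontal axes) of the probes that passed against GK-Sham-PF (left) and against Wistar (right), without a block (filled circles) and with the slide as a fixed block (open squares). The squares stay on the same side of 0 in the left panel and cross it for Fth1 probe 2 and Hmox1 in the right one.

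RefSeq promoter windows (GRCr8, 250 bases before to 50 after each gene's start) were at hand for 7 of the 10 genes, and were searched on both strands for the core letters of the hypoxia response element, ACGTG and GCGTG, and for those of the antioxidant response element, TGACNNNGC. One or the other hypoxia core occurred in 3 of the 7 windows, those of Tfrc, Cybrd1 and Heph, beside 41.6% of all 33469 windows, and TGACNNNGC in none, beside 12.1%. The Tfrc window (chr11:81690269-81690568, minus strand) held ACGTG at position 220 and GCGTG on the opposite strand at position 158, where the printed strand reads CACGC, counted from 1 at its 5′ end, and is shown with these in capitals because Tfrc was the member called against both control groups.
Tfrc promoter: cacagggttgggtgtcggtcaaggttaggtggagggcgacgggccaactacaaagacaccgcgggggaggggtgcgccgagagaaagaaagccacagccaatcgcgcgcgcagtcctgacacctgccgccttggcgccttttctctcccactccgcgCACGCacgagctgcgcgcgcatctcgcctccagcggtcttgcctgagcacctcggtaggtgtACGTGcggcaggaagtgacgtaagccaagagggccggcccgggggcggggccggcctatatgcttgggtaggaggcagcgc
The match is a description of the letters, and nothing about binding follows from it.

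Genes of neighbouring pathways were followed in lists of their own. Of 18 probes of the HIF pathway and its known targets, 5 rose and none fell between the bypass and sham groups (median log2 fold change 0.12). Over all probes 3.9% rose and 2.8% fell. The other 13 did not pass, among them those of Vegfa (-0.11 and -0.25), Adm (0.39), Car9 (-0.03) and Ndrg1 (0.15 and 0.41). Egln3, an oxygen-sensing prolyl hydroxylase that is itself induced through HIF, rose by 1.50 ± 0.16 on the log2 scale (limma adjusted p = 9.1e-05), Ankrd37 by 1.14 ± 0.17, Bnip3, a mitophagy receptor, by 0.71 ± 0.17 and Egln1 by 0.48 ± 0.09. In each of these the 5 GK-S-30 arrays lay above the 5 GK-Sham-PF arrays, but a lack of overlap was a condition for naming them. With slide as a block Egln3 was at 1.51 (limma adjusted p = 0.00805) and Bnip3 at 1.04 (0.0395) and both still passed, as did Pdk1, the fifth of the probes that rose (0.68, limma adjusted p = 0.0252), which was named after its values were seen. Ankrd37 and Egln1 were at 1 and 0.51 in that fit and did not pass (limma adjusted p = 0.126 and 0.134). Hif1a itself was at 11.73 ± 0.20 in GK-S-30 and 11.66 ± 0.17 in GK-Sham-PF at 1 of its 2 probes (SD, n = 5) and at 10.08 ± 0.19 and 9.81 ± 0.05 at the other, where the arrays did not overlap but the difference of 0.28 ± 0.10 did not pass (limma adjusted p = 0.117). Between GK-Sham-PF and Wistar 3 of the 18 probes fell and none rose, where 4.22% of all probes fell and 3.61% rose. Ndrg1 was lower by 1.16 ± 0.20 (limma adjusted p = 0.00166, and 0.0877 with slide as a block). Egln3 was lower by 0.56 ± 0.16 (0.0423, and 0.0729) and Pdk1 by 0.5 ± 0.09 (0.00214, and 0.275). Against Wistar, GK-S-30 had 4 of the 18 probes higher and 1 lower, where 10.9% of all probes were higher and 11.8% lower. The probe that was lower was 1 of the 2 of Ndrg1 (-1.01 ± 0.20, limma adjusted p = 0.00238, and 0.218 with slide as a block). Egln3 was higher by 0.94 ± 0.16 (limma adjusted p = 0.000588, and 0.624 with slide as a block), while Pdk1 differed by -0.06 ± 0.09 (0.67).

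Of 19 probes of other genes of iron transport, 1 was higher against GK-Sham-PF and none lower, with a median of -0.21. Over all probes 6.7% passed in this comparison. The probe that rose was that of Steap1, of the Steap family (1.17 ± 0.27, limma adjusted p = 0.0179), which with slide as a block was at 1.48 (limma adjusted p = 0.125). This probe was dim, at 6.04 ± 0.42 in GK-S-30, 4.87 ± 0.29 in GK-Sham-PF and 4.45 ± 0.62 in Wistar (SD, n = 5). Slc46a1, a folate transporter that also carries heme, was lower in GK-S-30 than in Wistar at both probes (-1.22 ± 0.22 and -0.96 ± 0.21, limma adjusted p = 9e-04 and 0.00435). Its brighter probe was already lower in GK-Sham-PF than in Wistar (-0.75 ± 0.22, limma adjusted p = 0.0467). With slide as a block none of these 3 differences of Slc46a1 passed (limma adjusted p = 0.0871, 0.287 and 0.405). Against Wistar the list had 1 probe higher and 6 lower of 19, where 10.9% of all probes were higher and 11.8% lower. None of the 13 probes of proteins that handle iron within the cell passed between the bypass and sham groups (limma, with a median of -0.08), and of the transferrin and hepcidin genes none of 4 did.

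Among the genes of heme synthesis and breakdown, 2 of 14 probes rose against GK-Sham-PF, where 3.9% of all probes did. Alas1, the first and rate-limiting enzyme of the pathway outside red cells, rose by 0.65 ± 0.18 (limma adjusted p = 0.0431), and with slide as a block was at 0.49 (limma adjusted p = 0.457). Its difference between GK-S-30 and Wistar, 0.19 ± 0.18, did not pass (limma adjusted p = 0.498). Cpox, coproporphyrinogen oxidase, rose by 0.83 ± 0.18 (limma adjusted p = 0.012, and 0.117 with slide as a block) from a far lower level than in Wistar. It read 4.51 ± 0.34 in GK-S-30, 3.68 ± 0.36 in GK-Sham-PF and 7.62 ± 0.14 in Wistar (SD, n = 5), and in the sham group it was well above background on 3 of 5 arrays. The fall from Wistar was 3.93 ± 0.18 on the log2 scale in GK-Sham-PF (limma adjusted p = 5.99e-10), which held with slide as a block (-3.63, limma adjusted p = 7.91e-05). Whether the strains differ in the sequence under this probe was not tested.

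The metallothioneins, small proteins that bind zinc and copper, fell in the bypass group against the sham group, Mt1a (present symbol Mt1) by 1.65 ± 0.28 (limma adjusted p = 0.00243) and Mt2A by 1.91 ± 0.33 (limma adjusted p = 0.00277). Their arrays did not overlap, which was a condition for naming them. Mt2A was higher in GK-Sham-PF than in Wistar (1.22 ± 0.33, limma adjusted p = 0.0301), and GK-S-30 was not called different from Wistar for either gene (limma adjusted p = 0.0502 and 0.147). On slide C they were lower by nearly the same amount (-1.74 and -1.93), with limma adjusted p = 0.0569 and 0.0689 for the slide block. Atp7a, the copper exporter of enterocytes, rose by 0.86 ± 0.22 (limma adjusted p = 0.0269). S100g, the calcium-binding protein of duodenal-type calcium absorption, fell in the bypass group against the sham group by 0.86 ± 0.16 (limma adjusted p = 0.00576) and was lower in GK-Sham-PF than in Wistar by 0.80 ± 0.16 (limma adjusted p = 0.00495). Atp2b1, a plasma membrane calcium pump, rose at 1 of its 2 probes (0.84 ± 0.20, limma adjusted p = 0.0194), the other being at 0.79 ± 0.24 (limma adjusted p = 0.0607). In the list of Nrf2 and Bach1, regulators of Hmox1, 1 of 11 probes rose against GK-Sham-PF, where 3.9% of all probes did. It was that of the glutathione synthesis enzyme Gclc (1.14 ± 0.29, limma adjusted p = 0.0306). Its arrays overlapped, and it was named after its value was seen. Between GK-S-30 and Wistar Gclc differed by 0.4 ± 0.29 and did not pass (limma adjusted p = 0.363). With slide as a block none of Atp7a, S100g, Atp2b1 and Gclc passed against GK-Sham-PF (limma adjusted p = 0.116, 0.271, 0.111 and 0.133), nor did Mt2A and S100g between GK-Sham-PF and Wistar (0.647 and 0.658).

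**Figure D5:**
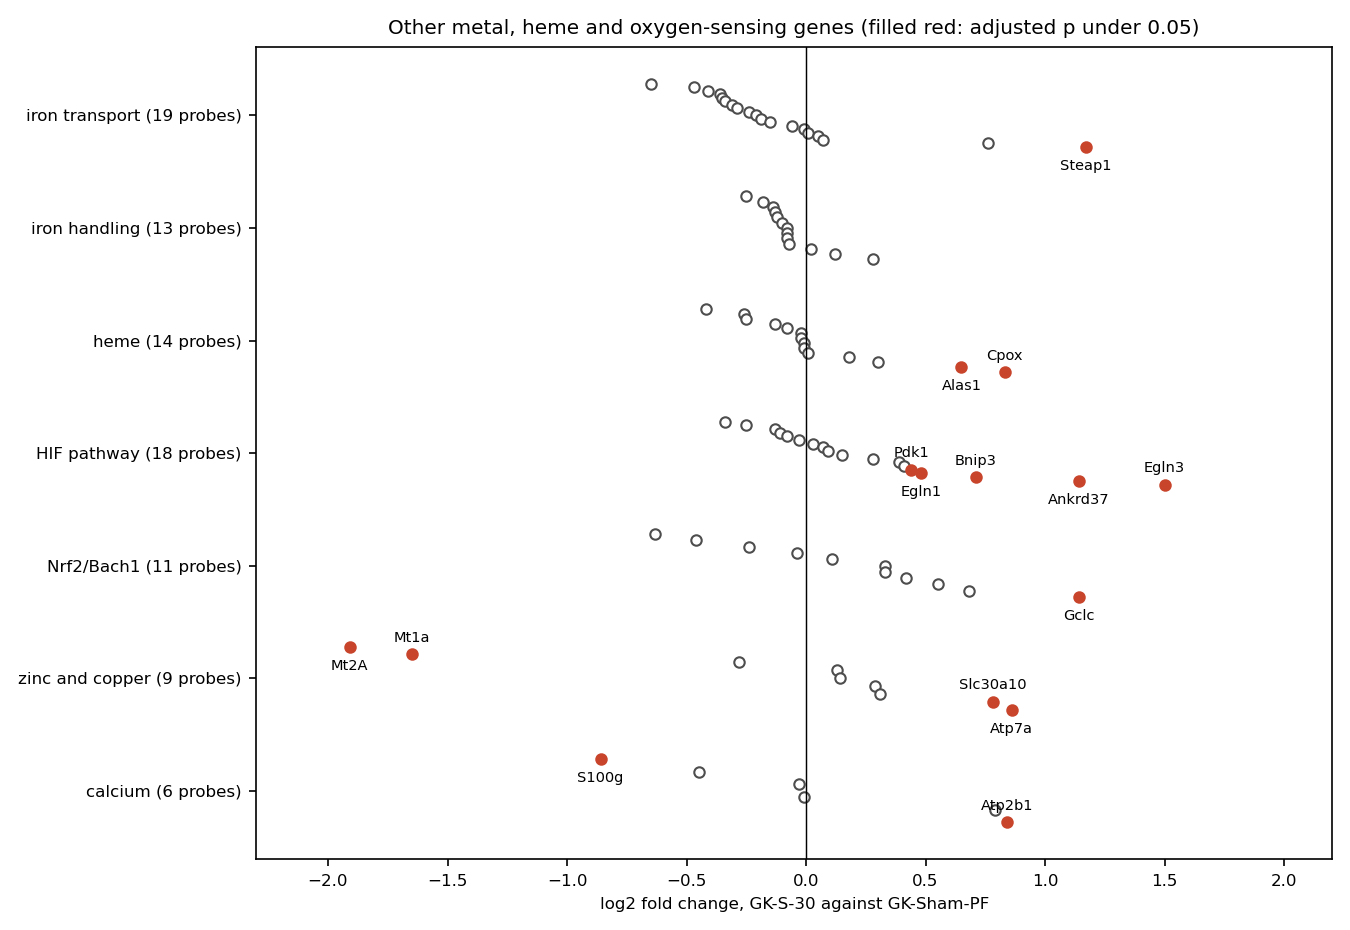
Log2 fold change between the bypass and sham groups (horizontal axis) of each tested probe in 7 lists of metal, heme and oxygen-sensing genes, with 1 point per probe and filled red points named where the limma adjusted p was under 0.05. The HIF pathway held 5 red points, all to the right of 0, and both metallothioneins stood far to the left.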

How the data were processed

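RNA from 15 pieces of intestine, 5 per group, was labelled with Cy3 and hybridised to Agilent whole rat genome arrays, 1 per rat. The authors scanned the slides and made the deposited intensity files with Feature Extraction 10.7.3.1 per the file headers, whose processed signal is background-subtracted. They also deposited a table of log2 values, quantile-normalized per their methods in GeneSpring, which was used as an alternative. The version of the rat genome to which the array files refer is rn4.

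Here, outlier spots (52 to 109 per array) were left out, processed signals were averaged over replicate spots, and the probe values were quantile-normalized on the log2 scale. Of 41012 probes outside the controls, 27891 were tested, which had to be well above background on all arrays of some group. Gene names came from the files, updated through RefSeq where an accession or symbol matched (22503 probes named, 18509 unnamed). Differences were tested with limma 3.58.1 in R 4.3.3 over all 15 arrays, with Benjamini-Hochberg adjustment over all probes tested and a threshold of 0.05. This departs from the methods' comparison, a one-way analysis with Tukey's correction, which was run as an alternative. The number of arrays, not depth, limits precision, and the median SE of a log2 fold change was 0.16. The fits were tested on simulated data. Differences between probes of a gene used exact permutation tests (SciPy 1.17.1).

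Replicates are separate rats per the labels, which give the same numbers to different rats in each group. Alternatives were other normalizations, filters on dim probes, slide as a block, the replicate number as a block, and leaving out arrays. All members were to be named, and of other lists up to 4 genes per comparison, those with the largest change among probes that passed without overlap of arrays. The members, lists and motifs were chosen with earlier results of these data known.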

Additional observations from a re-analysis of the deposited data

Results flagged for a closer look

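Each of the 20 probes was checked for a lone array in each group, and in 6 of the 60 sets 1 array stood apart from the other 4 (a gap of more than 0.71 of the whole range), a criterion that flags about 1 set in 20 by chance. All 6 were on the dimmest arrays, one of Wistar and one of GK-Sham-PF. In GK-Sham-PF replicate 5, Slc11a2 probe 2 read 8.68 against 8.9 to 8.94 in the others, Tfrc probe 2 read 6.07 against 6.68 to 6.9, and Epas1 read 9.25 against 8.59 to 8.72. In Wistar replicate 3, Cybrd1 read 10.91 against 10.07 to 10.29, Tfrc probe 1 read 11.19 against 11.49 to 11.59, and Fth1 probe 1 read 15.82 against 16.23 to 16.37. Without both arrays 8 probes passed between the bypass (GK-S-30) and sham (GK-Sham-PF) groups, and the count over all probes rose from 1869 to 2650. Both Slc40a1 probes and Fth1 probe 1 were gained, and Tfrc probe 2 was lost (limma adjusted p = 0.063). Between GK-S-30 and Wistar 5 passed, and the count over all probes rose from 6352 to 7613. Hmox1 was lost there (limma adjusted p = 0.0837).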

How the results depend on the processing

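The count of 6 probes called between the bypass and sham groups was 4 after 75th percentile scaling or normexp background correction, 6 with the authors' values, 1 without a filter on dim probes, 1 in a fit of the 2 groups alone, 0 with slide as a fixed block, 5 with slide as a random block, 10 by the methods' Tukey comparison, and 3 of 10 with the brightest probe per gene. Leaving out each array in turn gave 0 to 6, with 0 without GK-Sham-PF replicate 4, GK-S-30 replicate 1 or GK-S-30 replicate 5, and 1198 to 2370 over all probes. All 6 probes kept their direction under every alternative run. Between GK-Sham-PF and Wistar the count of 0 became 1 by the Tukey comparison (Ftl1 probe 1) and 0 to 1 with an array left out. Between GK-S-30 and Wistar the count of 6 became 0 with slide as a fixed block, 3 of 10 with the brightest probe per gene, and 4 to 6 with an array left out. The slide block turned the sign of Hmox1 (-0.27) and Fth1 probe 2 (0.14) against Wistar, and the cause was not tested. Quantile and 75th percentile scaling centred all probes within 0.05 of each other (log2).

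Samples share only a number across groups. Deviations of same-numbered arrays correlated at -0.28 to 0.19, so the numbers were not taken as pairing. With the replicate number as a block, 3 probes passed between the bypass and sham groups, 0 between GK-Sham-PF and Wistar and 4 between GK-S-30 and Wistar.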
